A study of Homo sapiens with 9 samples.

Results

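The MEK inhibitor PD184352 and the RAF inhibitor PLX4720 were compared with each other in A375P cells. A375P is an established line from a human melanoma and carries a mutant RAF kinase. The comparison rests on 6 of the 9 arrays of the series: the 3 arrays of cells given PD184352 and the 3 of cells given PLX4720, taken after 2, 6 and 24 h and paired by time. The other 3 arrays are of cells given the solvent DMSO for the same times, and they serve here for scale. All cells grew in DMEM with serum and antibiotics. PD184352 was used at 1 µM and PLX4720 at 0.4 µM, so compound and dose cannot be told apart. Each treatment and time had 1 column of values, called an array below. The series speaks of triplicates, and no source used here says whether a column averages them. Of 17047 genes with a row of their own, 12785 passed a filter on dim signal and were compared.

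RAF, MEK and ERK are kinases that act in a row: RAF phosphorylates MEK, and MEK phosphorylates ERK. PLX4720 binds the ATP pocket of RAF, with a preference for the mutant form, whereas PD184352 binds MEK beside its ATP pocket, 1 step further down. Active ERK drives transcription of its own brakes, among them DUSP6, a phosphatase that takes the phosphate off ERK, and the Sprouty (SPRY) and SPRED proteins, which dampen signalling above RAF. In melanoma cells these transcripts are commonly read as a measure of ERK output, and cyclin D1 (CCND1) links that output to entry into the cell cycle.

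DUSP6 and SPRY2 were the genes that separated the compounds most, and the 250 bases before their start sites are shown because ERK acts on transcription partly through ETS factors. The windows come from RefSeq on GRCh38.p14, and both lie on the minus strand: chr12:89352502-89352751 for DUSP6 and chr13:80341127-80341376 for SPRY2, the most upstream of 3 starts listed for that gene. They are printed 5′ to 3′ in the direction of transcription, in lower case. A match on either strand to the hexamer CGGAAG, 1 form of the ETS motif, is in capitals.
DUSP6: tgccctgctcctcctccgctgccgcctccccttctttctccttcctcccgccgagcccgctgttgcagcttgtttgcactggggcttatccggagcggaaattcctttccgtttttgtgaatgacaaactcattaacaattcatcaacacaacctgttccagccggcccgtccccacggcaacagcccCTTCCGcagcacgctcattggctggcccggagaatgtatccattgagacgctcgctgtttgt
SPRY2: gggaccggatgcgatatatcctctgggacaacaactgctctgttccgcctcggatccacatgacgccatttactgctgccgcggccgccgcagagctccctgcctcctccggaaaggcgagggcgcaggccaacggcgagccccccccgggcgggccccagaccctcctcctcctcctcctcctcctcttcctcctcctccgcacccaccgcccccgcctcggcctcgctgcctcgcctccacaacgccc
The DUSP6 window held 1 match, on the opposite strand and 62 bases before the start, and the SPRY2 window held 0. Only this hexamer was counted, and shorter stretches such as GGAA, which both windows hold, were not. The hexamer was present in 16.5% of 35116 promoter windows of the same length. The AP-1 motif TGANTCA (6.57% of windows) and the CRE core TGACGT (7.1%) were also searched on both strands, and neither window held one. The window of SPRY4, at chr5:142324248-142324497 on the minus strand, held 0 matches to any of the 3 motifs. A match is a description of letters and not a measured site.

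Values are log2(intensity + 1), and a difference is PD184352 minus PLX4720 on that scale, so that a negative value is lower with PD184352. Median intensities of the 9 arrays lay between 98.96 and 102.4, and the 99th percentile was 1552 to 1654 with PD184352 and 1550 to 1645 with PLX4720. The median difference over all genes was −0.07 at 2 h, 0.02 at 6 h and 0.00 at 24 h, so 70.1% of genes were below 0 at 2 h, 42% at 6 h and 50.2% at 24 h. Melanocyte genes were present: PMEL, a melanosome protein, lay between 10.21 and 11.18 on the 9 arrays, and SOX10, a melanocyte lineage factor, between 9.72 and 10.79. MLANA was dim, between 6.25 and 6.92. Of 18 melanocyte markers, 13 had a row that names 1 gene and 12 passed the filter, and TYR, TYRP1 and DCT are not analysed here. The summed intensity of the markers was 7050 to 7200 with DMSO, 6690 to 9060 with PD184352 and 7020 to 8150 with PLX4720. Epithelial, leukocyte, endothelial and fibroblast markers summed to between 344 and 1030 on every array.

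Over the 3 times together the compounds could hardly be told apart. With limma and Benjamini-Hochberg adjustment, 0 of 12785 genes (0%) were called at an adjusted p under 0.05, the smallest adjusted p was 0.194, and 556 genes (4.35%) had an unadjusted p under 0.05 where 639 would be expected with no difference. The 95% interval of the mean difference stayed within 2-fold either way for all but 2 genes and within 1.5-fold for all but 18. This does not show that the compounds act alike, because the interval assumes a difference that is the same at 2, 6 and 24 h. The p-values measure the spread among these 6 arrays, and nothing in the labels ties them to separate cultures. For any single gene, an exact sign-flip test over 3 pairs cannot go below p = 0.25. The count depended on the filter and on the 6 h pair: 24 genes were called with the dimmest 50% left out, 25 without the 6 h pair, 5 without the 24 h pair and 0 without the 2 h pair.

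More genes were far apart between the compounds at 24 h than earlier. The median size of the difference was largest at 2 h (0.10, against 0.08 at 6 h and 0.07 at 24 h). That size includes the shift of all genes at 2 h (median −0.07). The standard deviation of the differences, which leaves out such a shift, was 0.13, 0.12 and 0.14 at 2, 6 and 24 h. Genes at least 1.5-fold apart (0.58 on the log2 scale) numbered 17 at 2 h (0.133% of genes), 17 at 6 h (0.133%) and 55 at 24 h (0.43%). At 2 h, 12 were higher (0.0939%) and 5 lower (0.0391%) with PD184352. At 6 h, 5 were higher (0.0391%) and 12 lower (0.0939%), and at 24 h 17 were higher (0.133%) and 38 lower (0.297%). At least 2-fold apart were 1 gene at 2 h (0.00782%), 0 at 6 h (0%) and 3 at 24 h (0.0235%), the last being DUSP6, SPRY2 and SUMO2. These counts compare single arrays and carry no test. Between DMSO arrays, which differ only in time, 77 genes (0.602%) were 1.5-fold apart from 2 h to 6 h, 68 (0.532%) from 6 h to 24 h and 156 (1.22%) from 2 h to 24 h. The 24 h arrays of the compounds were thus closer to each other than any pair of DMSO arrays. Against the DMSO array of the same time, PD184352 had 50 (0.391%), 243 (1.9%) and 1698 (13.3%) genes past 1.5-fold at 2, 6 and 24 h. The counts with PLX4720 were 38 (0.297%), 242 (1.89%) and 1372 (10.7%). At no time did any gene lie at least 0.5 above DMSO with one compound and 0.5 below it with the other (0 genes).

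**Figure D1:**
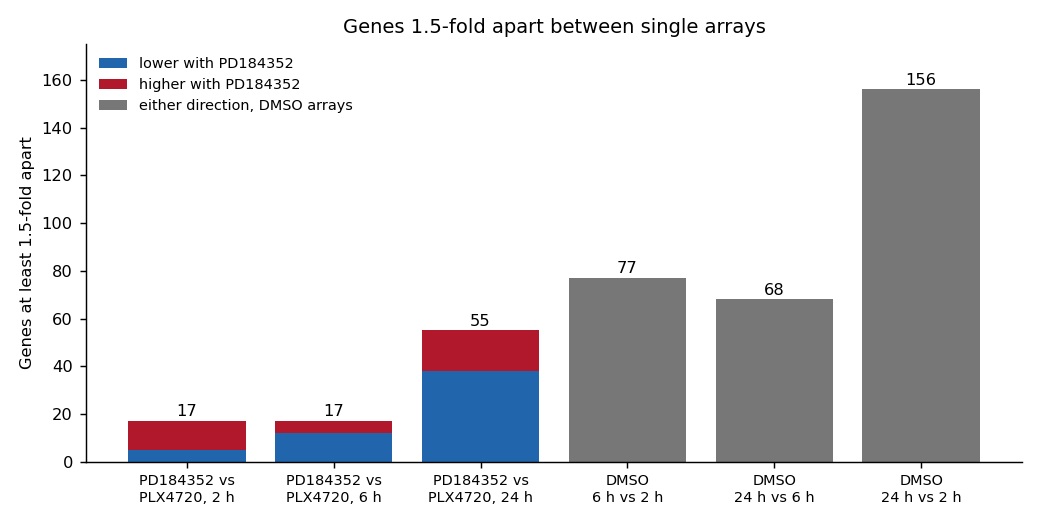
Number of genes (y axis) at least 1.5-fold apart between single arrays, out of 12785, for PD184352 against PLX4720 at 2, 6 and 24 h, split by direction, and for pairs of DMSO arrays in either direction. The compounds differ in 17, 17 and 55 genes, and each pair of DMSO arrays differs in more, 68 to 156.

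DUSP6 differed most. Its level was 10.54, 10.72 and 10.61 with DMSO at 2, 6 and 24 h, 7.60, 6.67 and 6.84 with PD184352, and 7.72, 7.49 and 8.69 with PLX4720. Both compounds held it far below DMSO at all times, and the gap between them opened from 2 h on, being −0.12 at 2 h, −0.83 at 6 h and −1.84 at 24 h, or 3.59-fold. At 24 h its level was 1.20 above that at 6 h on the PLX4720 arrays and 0.18 above on the PD184352 arrays, as differences of single arrays with no test. The change of the difference from 2 h to 24 h was −1.72 (SE 0.20; 95% interval −2.11 to −1.34; limma adjusted p = 3.66e-14). Averaged over times the difference was −0.93 (SE 0.21; interval −1.38 to −0.48; limma adjusted p = 0.429), lower in 3 of 3 pairs and not called.

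SPRY2 followed the same course. Its level was 10.22, 10.34 and 10.02 with DMSO, 7.73, 6.67 and 6.59 with PD184352, and 7.83, 7.50 and 8.21 with PLX4720. The compounds lay side by side at 2 h (−0.10) and apart at 6 h (−0.83) and 24 h (−1.62, or 3.08-fold), where the PLX4720 array stood 0.71 above its 6 h level and the PD184352 array at −0.08 from its own. The change of the difference was −1.52 (SE 0.20; limma adjusted p = 8.38e-11), and the mean difference was −0.85 (SE 0.19; limma adjusted p = 0.381). For both genes the change with time was called in every alternative run that recorded calls gene by gene, except the one that kept dim genes in. There the limma adjusted p was 0.0602. The run on every row recorded only a count of calls. The size of the p-value varied widely between runs. With quantile normalization the limma adjusted p was 0.0306 for both genes. With each array centred on its median it was 0.000433 for DUSP6 and 0.000873 for SPRY2. These p-values rest on a spread shared by all genes, not on replicates of either gene. With the dimmest 50% left out their mean differences were called too, at limma adjusted p = 5.57e-10 for DUSP6 and 8.01e-10 for SPRY2.

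SPRY4 lay further below DMSO than either at 6 h and 24 h, and the compounds were closer. It lay at 10.33, 10.87 and 10.90 with DMSO, 8.40, 6.51 and 6.48 with PD184352, and 8.38, 6.96 and 7.21 with PLX4720. The compound arrays were within 0.02 of each other at 2 h, and the PD184352 arrays were lower by −0.45 at 6 h and −0.73 at 24 h, or 1.66-fold. The change of the difference was −0.75 (SE 0.20; limma adjusted p = 0.0692) and was not called.

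**Figure D2:**
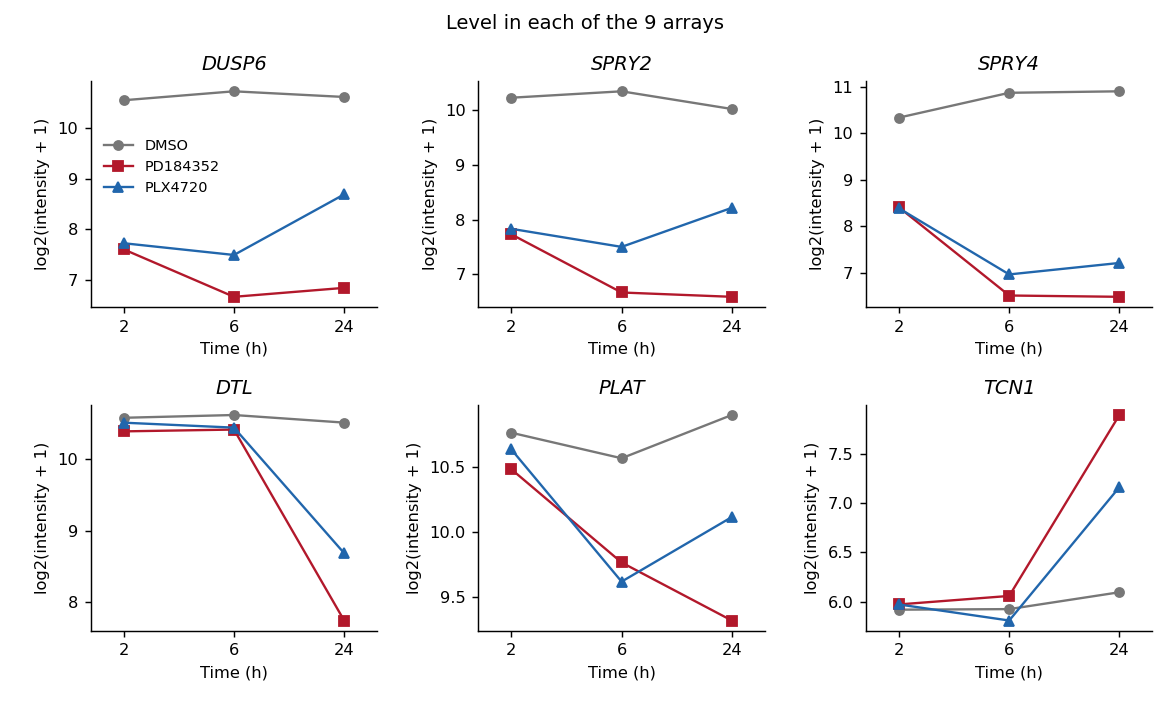
Level in each of the 9 arrays, as log2(intensity + 1), against time in h, for DUSP6, SPRY2, SPRY4, DTL, PLAT and TCN1; each point is 1 array and each panel has its own y range. DUSP6 and SPRY2 are together at 2 h and separate by 24 h (differences −1.84 and −1.62), while DTL, PLAT and TCN1 separate at 24 h by −0.94, −0.80 and 0.73.

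The other brakes of ERK differed less. The list of ERK feedback inhibitors holds 12 genes, DUSP6, SPRY2 and SPRY4 among them, and all 12 were measured. Of the 12, 8 were lower with PD184352 at 24 h (50.2% of all genes were). The 3 past 1.5-fold (0.297% of all genes) were DUSP6, SPRY2 and SPRY4, and no other brake passed it. The 2 with a called change with time (0.203%) were DUSP6 and SPRY2. The median difference of all 12, those 3 included, was −0.19 beside 0.00 over all genes. SPRED1, a membrane-bound inhibitor of the RAS to RAF step, was at 8.88 with PD184352 and 9.42 with PLX4720 at 24 h (difference −0.54), against 10.42 with DMSO. SPRED2, its relative, was at 8.33 and 8.74 (−0.41), against 9.32 with DMSO. DUSP4, a nuclear phosphatase of ERK, was at 8.66 and 8.82 (−0.15), and DUSP5 at 8.64 and 8.57 (0.07). DUSP1 was at −0.23, DUSP7 at 0.10, SPRY1 at 0.07, SPRED3 at −0.08 and DUSP2 at 0.11. The genes with the deepest loss against DMSO were those with the widest gaps, but not in the same order: SPRY4 was −4.42 and −3.69 from DMSO with PD184352 and PLX4720, and DUSP6 was −3.77 and −1.92.

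**Figure D3:**
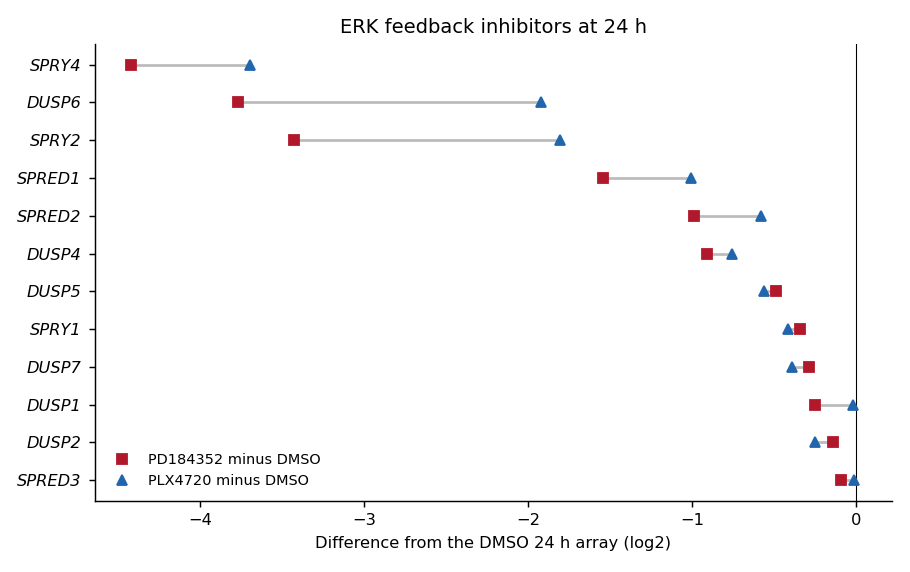
Difference from the DMSO array at 24 h (x axis, log2) for the 12 ERK feedback inhibitors, with PD184352 as squares and PLX4720 as triangles; a grey line joins the values of 1 gene, and both share 1 DMSO array. DUSP6 (−3.77 and −1.92) and SPRY2 (−3.43 and −1.80) have the longest lines, and DUSP5, SPRY1, DUSP7 and DUSP2 lie slightly lower with PLX4720.

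The 10-gene MAPK activity score is a published readout of the pathway that shares DUSP4, DUSP6, SPRY2 and SPRY4 with the list above. Its genes had a median difference of −0.30 at 24 h, and 9 of 10 were lower with PD184352, beside 50.2% of all genes. CCND1 was at 8.74 with PD184352 and 9.24 with PLX4720 at 24 h (−0.50), against 10.78 with DMSO, and the compounds had been level at 6 h, at 9.74 on both arrays. ETV4 and ETV5, ETS-family factors that ERK induces, were far below DMSO with both compounds: ETV5 was −3.45 and −3.06 from DMSO, and ETV4 was −3.23 and −3.02. Their differences between the compounds were only −0.39 and −0.21. EPHA4, an ephrin receptor, was −1.29 and −1.31 from DMSO with a difference of 0.02, PHLDA1 differed by 0.00, and EPHA2, another ephrin receptor, by −0.14. ERRFI1, which inhibits the EGF receptor, was −3.05 and −2.74 from DMSO, a difference of −0.31. A deep loss against DMSO thus went with a wide gap between the compounds in DUSP6 and SPRY2 and with a narrow one in ETV4, ETV5 and ERRFI1. With 16 in place of 1 added to the intensity, the difference was −0.33 for ETV5, −1.72 for DUSP6 and −1.49 for SPRY2. Whether low signal narrowed any of these gaps was not tested.

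Immediate-early genes, which respond first when ERK is switched on, did not lean to either compound at 24 h. The median of 25 was 0.01, 11 were lower with PD184352, beside 50.2% of all genes, and 0 passed 1.5-fold, beside 0.43%. At that share 25 genes would rarely include one, so the count of 0 is not read as a result. JUN was 2.41 and 2.17 above DMSO with PD184352 and PLX4720, and FOSL2 was 1.83 and 1.49 above. EGR1 was at −1.24 and −1.41, and IER3 at −1.52 and −1.32. ETS and PEA3 factors had a median of −0.13 over 10 genes. Receptors and ligands of the ERBB family had a median of 0.06 over 8 genes, with ERBB3 at 1.06 and 0.78 above DMSO, a difference of 0.28. The 17 measured genes of the RAS, RAF, MEK, ERK and RSK pathway itself had a median of 0.02, between −0.17 for RASA2 and 0.25 for SOS2.

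Most genes that were lower with PD184352 at 24 h lay below DMSO with both compounds. Of the 38, 28 lay at least 1.5-fold below DMSO with both, 6 with PD184352 alone, and in 4 PD184352 was not that far below. Over all genes, 13.3% were 1.5-fold from DMSO in either direction with PD184352 and 10.7% with PLX4720. The share below with both was not computed. These genes were chosen on the same 24 h arrays that are set against DMSO, so the split is a description only. In 1 gene, SLC35F1, PLX4720 was 1.5-fold above DMSO (0.80, against 0.16 with PD184352). Of the 38 genes, 34 have a single row on the array, as do DUSP6, SPRY2 and SPRY4. CDCA7 and TFAP2B lay just inside the 1.5-fold limit, both at −0.59, and CDC25A just outside at −0.58.

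Genes of DNA replication made up the broadest group. Of 32 measured, 30 were lower with PD184352 at 24 h, beside 50.2% of all genes, and 3 of them were past 1.5-fold, beside 0.297%. The median difference was −0.29. The median of the list against DMSO was −1.41 with PD184352 and −1.09 with PLX4720. MCM10, which helps to start the replication fork, was at 6.86 with PD184352 and 7.52 with PLX4720 (−0.66), against 9.24 with DMSO. CDC45, part of the replicative helicase, was at 7.79 and 8.41 (−0.63), and RRM2, a subunit of ribonucleotide reductase, at 6.52 and 7.13 (−0.60). MCM2, another helicase subunit, was at 9.15 and 9.58 (−0.42). RRM1 and TYMS were the exceptions, at 0.10 and 0.00. None of the 32 genes had a called change with time (0 genes), beside 0.203% of all genes, a share too small for this count to say much. At 2 h 30 of the 32 were also lower with PD184352, beside 70.1% of all genes, but by a median of −0.11 when all genes lay at −0.07. Once each array was centred on its median 25 remained lower. At 6 h 7 were lower, beside 42% of all genes.

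DTL, which directs the destruction of the replication licensing factor CDT1, had the widest gap of any cell cycle gene the naming rule picked. It was at 10.39, 10.42 and 7.74 with PD184352 and at 10.52, 10.45 and 8.69 with PLX4720, against 10.52 with DMSO at 24 h. The compounds were level until 6 h (−0.12 and −0.03) and 1.92-fold apart at 24 h (−0.94). The change of the difference was −0.82 (SE 0.20; limma adjusted p = 0.0221). The call was lost with quantile normalization (limma adjusted p = 0.817), with centred arrays (0.451), with an intensity trend (0.0666) and when dim genes were kept in (1).

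Histone genes transcribed in S phase lay lower with PD184352 as well. Of 9 measured, 8 were lower at 24 h (50.2% of all genes were) and 2 past 1.5-fold (0.297% of all genes), with a median of −0.36. H1-5, a linker histone, was at 7.79 with PD184352 and 8.65 with PLX4720 (−0.85), against 10.31 with DMSO. At 6 h the order was turned, with 10.29 and 9.97. H3C2 was at 10.49 and 11.20 (−0.71), against 12.86 with DMSO, and its change of the difference was −0.84 (SE 0.20; limma adjusted p = 0.0211). H3C1 went the other way, at 0.27. H2BC14, H3C3, H3C12 and H2AC21, histone genes outside the list that were picked out after their values were seen, were at −0.77, −0.76, −0.69 and −0.63. Histone genes have near-identical copies, and probes can bind several of them, so these values are uncertain for a single gene.

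In G1 and mitosis the gaps were smaller. All 10 genes of the G1 list were lower with PD184352 at 24 h, beside 50.2% of all genes, with a median of −0.11. CDC25A, the phosphatase that activates CDK2, was at 6.62 with PD184352 and 7.21 with PLX4720 (−0.58), against 8.98 with DMSO. The cyclin CCNE2 was at −0.27 and the kinase CDK6 at −0.24. Of 31 mitosis and kinetochore genes, 29 were lower (50.2% of all genes were) and 0 past 1.5-fold (0.297%). The count of 0 says little for a list of this size. Their median was −0.18, while the list lay −1.42 and −1.27 from DMSO. At 2 h 30 of the 31 were lower, beside 70.1% of all genes, by a median of −0.09 when all genes lay at −0.07. Once arrays were centred 23 were lower. At 6 h 12 were, beside 42% of all genes. CDK1 was at 6.96 and 7.21 (−0.24), and KIF11, AURKA and TOP2A were at 0.00, 0.00 and −0.04.

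Ribosome biogenesis, which growth signals drive through MYC, had 19 of 20 genes lower with PD184352 at 24 h, beside 50.2% of all genes. The median was −0.25, and 0 were past 1.5-fold, beside 0.297%, which says little for 20 genes. RRS1 was at −0.36, NOP16 at −0.31 and BYSL at −0.31, and UTP20 was the exception at 0.05. LYAR, a nucleolar protein, was at 8.20 and 8.50 (−0.30), against 9.93 with DMSO. The list as a whole was −0.87 and −0.63 from DMSO. At 2 h 18 of the 20 were lower, beside 70.1% of all genes, by a median of −0.15 when all genes lay at −0.07. Once arrays were centred 16 were lower. At 6 h 11 were, beside 42% of all genes.

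Single genes outside these groups had gaps of the same size. PLAT, tissue plasminogen activator, was at 10.49, 9.77 and 9.32 with PD184352 and at 10.64, 9.62 and 10.12 with PLX4720, against 10.77, 10.57 and 10.90 with DMSO. PLX4720 was the lower at 6 h by 0.15 and the higher at 24 h by 1.74-fold. LPL, lipoprotein lipase, was at 6.60 and 7.24 (−0.64), against 9.93. PMAIP1, the pro-death BCL2 family member known as NOXA, was at 5.79 and 6.46 (−0.67), against 8.53. The transcription factor TFAP2B was at 7.33 and 7.92 (−0.59), against 8.52. Each of these lay below DMSO with both compounds and further below with PD184352.

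**Figure D4:**
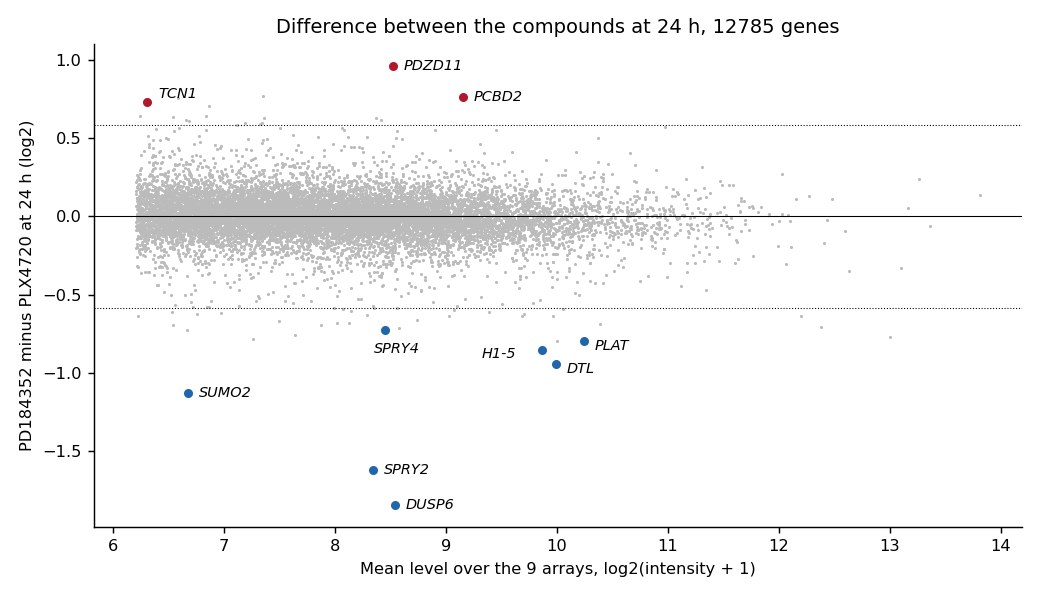
PD184352 minus PLX4720 at 24 h (y axis, log2) against the mean level over the 9 arrays (x axis, log2(intensity + 1)), 1 point for each of 12785 genes, with dotted lines at 1.5-fold. DUSP6 (−1.84) and SPRY2 (−1.62) stand apart from all other genes, followed by SUMO2 (−1.13) at a low level.

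The 17 genes higher with PD184352 at 24 h were of another kind. In 4 both compounds were at least 1.5-fold above DMSO, in 1 PD184352 alone was, and in 12 PD184352 was not that far above. In 5 PLX4720 was 1.5-fold below DMSO. The shares of all genes placed in these ways were not computed, and the 17 were chosen on the same 24 h arrays. TCN1, a vitamin B12 binding protein, was at 7.90 with PD184352 and 7.16 with PLX4720 (0.73), against 6.10 with DMSO. CPA4, PRUNE2 and NPY6R, named after their values were seen, were the others above DMSO with both, at differences of 0.63, 0.64 and 0.61. PDZD11 was at 9.34 and 8.38 (0.96), but DMSO lay at 9.14, beside PD184352, and its other rows were at −0.06 and −0.12. PCBD2 was at 9.75 and 8.99 (0.77), and its other row at 0.17. SMS was at 7.60 and 6.83 (0.77), and its other row at 0.00. Of the 17 genes, 9 have other rows on the array, and of those 11 rows 7 had the same sign and 2 passed 1.5-fold in the same direction. Among the 38 lower genes, 4 have other rows, and of those 5 rows 2 had the same sign and 1 passed. Of all genes tested, 12% have other rows.

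Several genes above DMSO with both compounds were slightly higher with PD184352 without passing 1.5-fold. PPARGC1A, a coactivator of mitochondrial genes, was at 7.41, 8.04 and 9.71 with PD184352 and at 7.66, 7.98 and 9.15 with PLX4720, against 7.92 with DMSO at 24 h. Its difference went from −0.26 to 0.56, a change of 0.82 (SE 0.20; limma adjusted p = 0.0221). That call was lost with quantile normalization, with centred arrays, with the mean of the gene's rows and when dim genes were kept in, with limma adjusted p between 0.445 and 0.817. BMF, a pro-death BCL2 family member, was 2.07 and 1.63 above DMSO at 24 h (difference 0.45). TP53INP1, a stress protein and p53 target, was 2.43 and 2.00 above (0.42). ANGPTL7, a secreted protein, was 4.43 and 3.98 above (0.45). CCN3 went against this order, at 2.17 and 2.52 above DMSO (−0.35).

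Among all genes, those farthest from DMSO at 24 h lay further from it with PD184352. Taking the mean of both compounds, 354 genes lay at least 2-fold below DMSO. Of these, 317 were lower with PD184352 than with PLX4720, beside 50.2% of all genes. Their median was −0.21, beside 0.00 over all genes. A further 154 lay at least 2-fold above DMSO, and 125 of them were higher with PD184352, by a median of 0.19 beside the same 0.00. Both comparisons share the DMSO array, and no test was made of these counts. At 6 h 51 genes lay at least 2-fold below DMSO, and 32 of them were lower with PD184352, beside 42% of all genes. Their median was −0.06, beside 0.02 over all genes, a smaller shift than at 24 h. At 2 h 4 genes lay that far below, 2 of them lower with PD184352, beside 70.1% of all genes.

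The 6 lists of metabolism, lineage and stress given first had small median differences at 24 h. Some other lists of these kinds leaned lower with PD184352. Melanocyte genes had a median of 0.09 over 12, with EDNRB at 0.22, RAB27A at 0.31, MITF at 0.14 and PMEL at 0.04. PPARGC1A, described above, is on this list as well, at 0.56. Targets of p53 had a median of 0.05 over 16 and FOXO targets 0.04 over 18. Cholesterol genes were at −0.06 over 17, lysosome and autophagy genes at 0.01 over 16, and oxidative phosphorylation genes at 0.02 over 15. Lower with PD184352 were 13 of 17 cholesterol genes, beside 50.2% of all genes. The counts were 4 of 12 for melanocyte genes, 5 of 16 for p53 targets and 7 of 18 for FOXO targets. For lysosome and autophagy genes 6 of 16 were lower, and for oxidative phosphorylation genes 5 of 15. None of these 6 lists held a gene past 1.5-fold (0 genes in each), beside 0.43% of all genes. At that share a list of this size would rarely hold one, so these counts are not read as a result. Cytosolic ribosomal proteins leaned to lower values with PD184352, 13 of 15 being lower, beside 50.2% of all genes. Their median was −0.13, from −0.37 for RPS14 to 0.50 for RPL4, whose other row was at 0.10. In the glycolysis list 18 of 23 were lower, beside 50.2% of all genes, with a median of −0.06. Its highest gene was TPI1 at 0.54, and the other row of TPI1 was at −0.14. Of ATF4-type amino acid and stress genes 13 of 18 were lower (median −0.10), and of heat shock and chaperone genes 11 of 14 (median −0.08). Fatty acid and lipid uptake genes had 5 of 12 lower and a median of 0.02, with LPL (−0.64) past 1.5-fold.

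**Figure D5:**
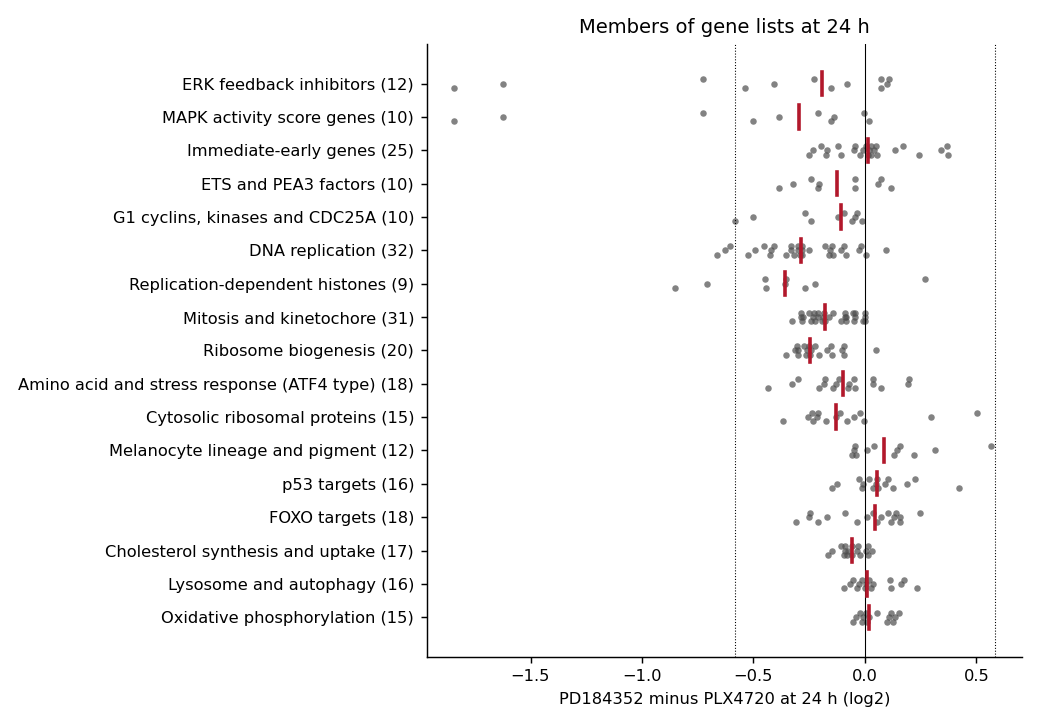
PD184352 minus PLX4720 at 24 h (x axis, log2) for the measured members of 17 gene lists, with the number of members in brackets; each point is 1 gene, the red bar is the list's median and dotted lines mark 1.5-fold. DNA replication, histones and ribosome biogenesis lie mostly below 0 (medians −0.29, −0.36 and −0.25), while oxidative phosphorylation and lysosome genes lie around 0 (0.02 and 0.01).

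The test of change with time called 26 of 12785 genes (0.203%), 14 with a difference that went up and 12 down; 456 genes (3.57%) had an unadjusted limma p under 0.05. The fit leaves 1 residual degree of freedom, so the spread is in effect shared by all genes (SE 0.197 to 0.198), and a dim gene is judged by the same spread as a bright one. The number of calls depended on the treatment of the arrays: 2 with quantile normalization (DUSP6 and SPRY2), 4 with each array centred on its median and 0 with no filter on dim genes. Beside the genes already described, SUMO2, a small protein modifier, was at 6.85, 6.69 and 5.77 with PD184352 and 6.96, 6.83 and 6.90 with PLX4720. Only its PD184352 array at 24 h was low (difference −1.13), and its other row, dimmer still, was at 0.35. MRPL20, of the mitochondrial ribosome, was 1.09 at 2 h, −0.71 at 6 h and 0.26 at 24 h, turning sign between times.

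Genes past 1.5-fold at 2 h or 6 h were mostly dim, and of these only DUSP6 and SPRY2 were past it in the same direction at another time. Their median level was 6.92 at 2 h and 6.80 at 6 h, against 7.90 over all genes and 8.13 for those at 24 h. No gene was past 1.5-fold in 1 direction at both 2 h and 24 h (0 genes) or at both 2 h and 6 h (0 genes), and 2 genes, IL17RA and MRPL20, were past it at 2 h and 6 h in opposite directions. The 2 genes past it at both 6 h and 24 h were DUSP6 and SPRY2. VWF was −0.81 at 2 h, with its other row at −0.01, and MCEE was 0.81 at 2 h, with its other row at −0.03. HMGN1P30 was −0.86 and GPS2 0.64 at 6 h, with 24 h values of −0.24 and −0.12.

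Of all genes, 2792 (21.8%) had a difference of 1 sign at all 3 times, 924 higher and 1868 lower with PD184352. As 70.1% of genes were below 0 at 2 h, 42% at 6 h and 50.2% at 24 h, the larger number lower is not read as a result. The share that these values alone would give was not computed. Among the largest mean differences were those of SH3TC2, at −0.20, −0.43 and −0.71 (mean −0.45, SE 0.09; limma adjusted p = 0.368), and NBEA, at −0.60, −0.41 and −0.25 (mean −0.42, SE 0.08; limma adjusted p = 0.194). SH3TC2 was at 8.26 with PD184352 and 8.97 with PLX4720 at 24 h, beside 8.99 with DMSO, so only the PD184352 array stood off DMSO, but another of its rows was at 0.03. NBEA has another row, at −0.15, 0.21 and 0.14. With the mean of a gene's rows in place of the brightest row, the mean difference was −0.12 for SH3TC2 and −0.18 for NBEA (limma adjusted p = 1 for both). RSPH1, a protein of cilia, was at −0.47, −0.27 and −0.44 (mean −0.40; limma adjusted p = 0.194). On the higher side, WBP11, a splicing factor, was at 0.23, 0.60 and 0.51 (mean 0.45, SE 0.08; limma adjusted p = 0.194). RPL14, a ribosomal protein, was at 0.74, 0.03 and 0.57 (mean 0.45, SE 0.11; limma adjusted p = 0.505), and its other row was at −0.13, −0.12 and 0.12. With the mean of its rows the mean difference of RPL14 was 0.20. LINC02591, a long non-coding RNA, and H3P44, a histone pseudogene, had mean differences of 0.40 and 0.38 (limma adjusted p = 0.194 for both). With the dimmest 50% left out, the means of SH3TC2, NBEA, WBP11 and RPL14 from their brightest rows were called, at limma adjusted p between 0.000113 and 0.000312, and RPL14 was called without the 6 h pair as well (0.00786).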

How the data were processed

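The deposited values are intensities per transcript cluster of a gene-level exon array, deposited by the authors on a linear scale. RMA, limma and R 2.8.0 appear in the submitters' processing notes, with no role given. Genome build and annotation are not given in the sources used here. No further normalization was applied. Rows with 1 symbol in the platform table were kept (19380 of 35446), the brightest row per gene was used, and the dimmest 25% of genes were left out. log2(value + 1) was tested with limma 3.58.1 in R 4.3.3 and Benjamini-Hochberg adjustment over 12785 genes, with time as a block; a second fit tested the change of the difference with time scores −1, 0 and 1. Both were tested on simulated data. Differences at 1 time have 1 array a side and no test. Depth does not apply to arrays, and their number limits the precision. Identical values were found in 0 pairs of arrays. Genes were named from the 6 largest differences each way at each time, the 10 largest mean differences of 1 sign and the 5 largest changes with time each way. Further sources were the 5 smallest p-values, genes on opposite sides of DMSO, all ERK feedback and MAPK score genes, and up to 4 of each other list. Other genes were named after their values were seen, and the text marks only some of them as such. MCM10, H3C2, JUN and FOSL2 are among those left unmarked. Not every gene that the rule picks is reported here. The arrays, the 41 gene lists (562 of 675 genes with a row) and the rules were chosen with earlier results of these data known. Filters, pseudocount, normalization, choice of row, omitted pairs and fit design were varied, and robust variance estimation was added after the data were seen.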

Additional observations from a re-analysis of the deposited data

Results flagged for a closer look

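The difference between PD184352 and PLX4720 was not the same at all times in 26 genes, by limma's test of its change from 2 h to 24 h, and the named genes among them are given here because their effects at different times differed by that test. The change was −1.72 for DUSP6, −1.52 for SPRY2, −1.02 for SUMO2, −0.88 for MCEE, −0.85 for DRC11, −0.84 for H3C2, −0.82 for DTL and −0.82 for MRPL20, so that these went lower with PD184352 relative to PLX4720. It was 1.39 for PDZD11, 1.18 for MIF4GD-DT, 1.11 for DNM1P35, 1.04 for OR56A3, 0.88 for NUGGC, 0.83 for VWF, 0.83 for SMS, 0.82 for PPARGC1A, 0.81 for KRTAP5-6 and 0.78 for CPA4, which went higher. DUSP6, SPRY2, DTL and PPARGC1A were far from DMSO with both compounds at 24 h. The row used for NUGGC was at 0.76 at 24 h, and its other rows were at −0.12 and 0.03. For DRC11 the row used went from 0.67 at 2 h to −0.18 at 24 h. Another of its rows went from 0.15 to 0.02, and a dimmer one from 0.48 to 0.70. MIF4GD-DT, OR56A3 and KRTAP5-6 were dim, with mean levels of 6.60, 6.36 and 6.87, and their values at 24 h were −0.74, −0.51 and −0.42 from DMSO with PLX4720 against −0.18, −0.07 and 0.28 with PD184352.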

How the results depend on the processing

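The count of 0 genes called over the 3 times became 24 with the dimmest 50% left out and ranged from 0 to 25 when 1 pair of arrays was left out. The 26 genes with a called change with time became 0 with no filter on dim genes, 10 with the dimmest 50% left out, 15 with a pseudocount of 16, 2 with quantile normalization, 4 with centred arrays, 11 with the mean of a gene's rows and 15 with every row tested. The genes at least 1.5-fold apart, 17, 17 and 55 at 2, 6 and 24 h, became 81, 80 and 126 with no filter, 7, 6 and 34 with the dimmest 50% left out, 11, 9 and 32 with the larger pseudocount and 52, 35 and 101 over every row, and 1, 0 and 3 were 2-fold apart. The cause was not tested, beyond the number of genes and the threshold that these settings change. No value changed direction (0 reversed in the settings run). For genes named, the recomputed difference at 1 time moved by more than the spread between arrays in 17 cases and did not in 264, and the call of a change with time was lost in 41 cases and kept in 47. Leaving out a pair from the test of change leaves no residual degrees of freedom, and it was not run. The labels carry no replicate numbers, so time is the block, and the fit without it called 0 genes. How far signal over background limits dim genes is unknown, since no background values were used.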
